A study of Mus musculus with 12 samples.

Results

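The testes of Topaz1-/- mice were compared with those of wild-type mice at 20 days after birth (P20). All arrays labelled KO P20 or WT P20 were taken, which gave 6 of the 12 arrays of the series, 3 per genotype. Each sample was total RNA of testis from a C57Bl/6N mouse that was either wild type (WT) or Topaz1-/- (KO), both 20 days old and with no treatment given in the labels. The labels call the 3 samples of a group biological repeats and do not say whether animals were pooled or shared a litter, so p-values measure the spread between these samples. The other 6 arrays held WT and KO testes at 15 days (P15). They entered the comparison through the estimate of the spread and the choice of each gene's brightest probe, and their genotype difference is given where it bears on a P20 result.

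In the juvenile mouse testis the first wave of germ cells moves through spermatogenesis nearly in step. Spermatogonia enter meiosis, spermatocytes pair and recombine their chromosomes during a long prophase whose pachytene stage is rich in new transcripts, and the meiotic divisions then give round spermatids. Around P20 the WT testis passes from late meiosis to the first spermatids, and many genes of the acrosome, the flagellum and the sex chromosomes are switched on or back on in those cells. The series title names Topaz1 as a factor of germ cells on which male meiosis depends. In whole testis RNA, fewer cells of a type and less RNA per cell cannot be told apart.

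Signals were Illumina bead array intensities, quantile-normalized by the submitters, and levels are given as log2(intensity + 50). A change is the KO mean minus the WT mean on that scale, which understates the change of weakly expressed genes. An array counted a probe as above background when its level exceeded 7.53. Before normalization the median intensity of a P20 array lay between 128.2 and 136.5, and after it 49.5% of probes were above background on every array. Rank correlations between arrays over all probes were 0.902 to 0.917 within a genotype and 0.896 to 0.906 between genotypes. The first principal component held 47.2% of the variance and put the 3 WT arrays at -20.0 to -10.6 and the 3 KO arrays at 9.97 to 21.0. No probe was annotated to Topaz1, so the genotype labels were not checked against the deleted gene.

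Several arrays stood apart from the others of their genotype. KO replicates 1 and 3 exceeded KO replicate 2 and WT replicates 1 and 2 by at least 1 log2 unit at 27 genes, and at all 27 WT replicate 3 was the highest of the WT arrays. These genes, chosen after their values were seen, included Spink8 and Wfdc15b, which encode protease inhibitor-type proteins, Cd52, Gpx3 and the defensins Defb2, Defb28 and Defb42. Spink8 was at 7.78, 7.82 and 12.09 in WT and at 13.21, 7.56 and 13.08 in KO. Of 18 measured epididymal genes, 2 were above background on all arrays of a group, and the mean of the 18 was 8.08 on KO replicate 1, 8.14 on KO replicate 3, 7.87 on WT replicate 3 and 7.74 to 7.77 on the remaining arrays. KO replicate 2 exceeded all 5 other arrays by at least 1 log2 unit at 28 genes, led by the interferon-inducible GTPase genes Gbp2, Igtp and Irgm2 and the transcription factor gene Irf1. Gbp2 was at 8.26 to 8.48 on the WT arrays, at 8.46 and 8.60 on KO replicates 1 and 3, and at 12.99 on KO replicate 2. WT replicate 1 lay apart from the other WT arrays on the second principal component (16.6, against -4.03 and -11.2), as KO replicate 3 did from the other KO arrays (-14.9, against 6.08 and 7.44). WT replicate 1 had the lowest WT means for spermatid, flagellar and sex-linked multicopy genes. None of the 27 genes of the first pattern passed the genotype test, nor did Gbp2, Igtp, Irgm2 or Irf1.

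At P20, 472 of 45281 probes differed between the genotypes (1.04% of all probes; limma, Benjamini-Hochberg adjusted over all probes, threshold 0.05). Of these, 331 were higher (0.731%) and 141 lower (0.311%) in KO. Probes were assigned to genes, and each of 19053 genes was represented by its brightest probe. By that probe 266 genes changed (1.4%): 189 rose (0.992%) and 77 fell (0.404%). The 3 KO arrays lay outside the range of the 3 WT arrays at all 266 of them, whereas over all genes 10.7% had every KO array above every WT array and 9.96% had every KO array below. Rises outnumbered falls, but the largest changes were falls. The median rise was 0.51 log2 units (1.42-fold) and the median fall was 0.41 units in size (1.33-fold). In measured signal, 7 genes rose and 9 fell by at least 2-fold. Both directions were found mainly among well-expressed genes, with 92 rises and 42 falls among the 4763 genes of highest mean level and 0 of either among the 4764 of lowest mean level. The excess of rises was smaller under background correction by normexp, with 330 probes higher and 240 lower, and in a fit of the 6 P20 arrays alone, with 297 higher and 248 lower. Without WT replicate 2 the count fell to 158, and without KO replicate 1 or 2 it was 179 or 255.

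**Figure D1:**
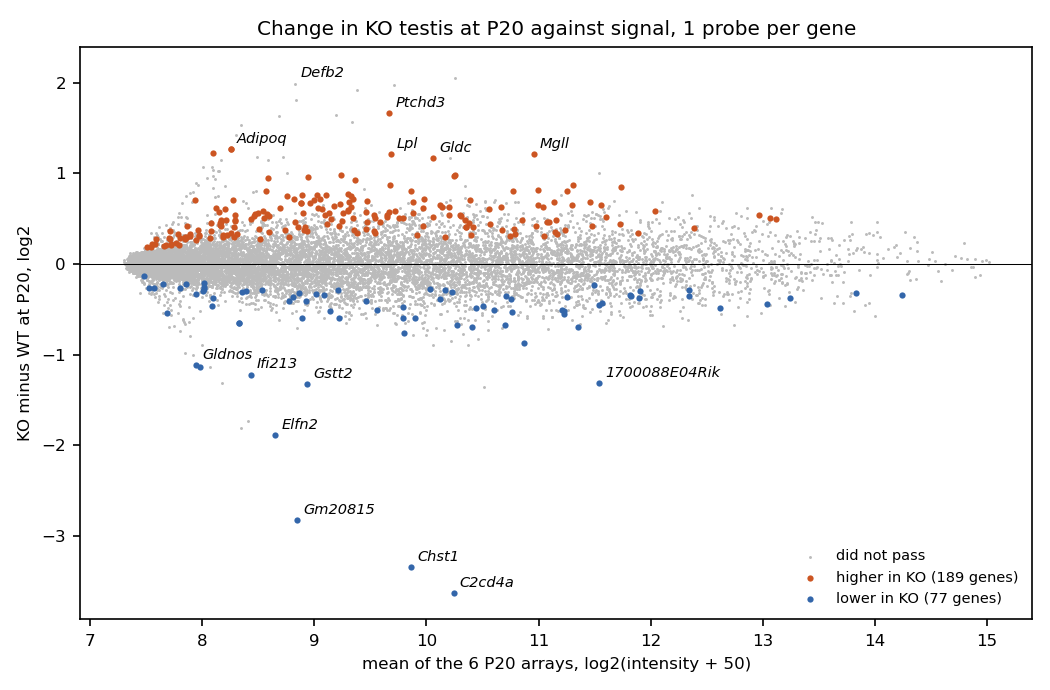
Change between the genotypes at P20 against mean level. Each point is a gene by its brightest probe, with the mean of the 6 P20 arrays on the horizontal axis and KO minus WT on the vertical axis, both on the log2(intensity + 50) scale; coloured points are the 189 genes that rose and the 77 that fell, and the falls of C2cd4a, Chst1, Gm20815 and Elfn2 are larger in size than any rise that passed.

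The falls were led by C2cd4a, Chst1, Gm20815 and Elfn2. C2cd4a encodes a nuclear protein with a C2 calcium-dependent domain. Chst1 encodes a sulfotransferase that adds sulfate to the galactose units of keratan sulfate. Elfn2 encodes a membrane protein with leucine-rich repeats and a fibronectin type III domain that inhibits protein phosphatase 1. Their promoter sequences are printed because no other named genes fell as far on all 3 arrays. They come from RefSeq on build GRCm38.p6, 250 bases before and 50 after the annotated start, 5′ to 3′ on the gene's strand. C2cd4a is at chr9:67832281-67832580 on the minus strand, Chst1 at chr2:92600867-92601166 on the plus strand and Elfn2 at chr15:78718722-78719021 on the minus strand. Capitals mark matches, on either strand, to 3 short motifs of factors that act in germ cells or ciliated cells: the MYB core AACTG, the cAMP response element half-site TGACG and the X-box half-site GTTGCC of RFX factors.
C2cd4a: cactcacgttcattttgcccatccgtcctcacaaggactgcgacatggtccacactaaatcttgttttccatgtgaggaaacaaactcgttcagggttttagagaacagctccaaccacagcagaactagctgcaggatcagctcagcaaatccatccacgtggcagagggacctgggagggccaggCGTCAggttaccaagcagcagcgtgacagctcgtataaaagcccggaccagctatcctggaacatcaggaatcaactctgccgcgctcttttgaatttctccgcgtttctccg
Chst1: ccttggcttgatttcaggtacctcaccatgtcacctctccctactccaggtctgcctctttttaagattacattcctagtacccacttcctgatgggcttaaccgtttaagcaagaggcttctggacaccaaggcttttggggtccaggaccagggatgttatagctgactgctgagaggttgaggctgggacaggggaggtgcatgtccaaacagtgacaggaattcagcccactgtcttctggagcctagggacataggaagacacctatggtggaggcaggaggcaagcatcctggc
Elfn2: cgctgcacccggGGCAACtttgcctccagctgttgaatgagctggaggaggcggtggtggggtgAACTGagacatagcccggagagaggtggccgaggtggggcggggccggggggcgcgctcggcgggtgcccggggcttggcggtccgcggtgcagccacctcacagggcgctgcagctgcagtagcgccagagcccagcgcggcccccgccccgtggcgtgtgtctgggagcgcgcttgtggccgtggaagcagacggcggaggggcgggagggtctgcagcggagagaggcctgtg

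The C2cd4a window holds 1 TGACG match, which is printed as its reverse complement CGTCA, the Chst1 window holds none of the 3 motifs, and the Elfn2 window holds 1 AACTG and 1 GTTGCC match, the latter printed as GGCAAC. None of these matches overlap one another. The windows have 52.3%, 52.7% and 73.3% G and C, against a median of 52.7% over 32851 promoters of 27025 genes. AACTG was found in 44.8% of all promoters, in 45.5% of 178 promoters of genes that rose and in 41.9% of 86 promoters of genes that fell. TGACG was found in 20.8%, 24.7% and 23.3% of the same sets, and GTTGCC in 12.5%, 16.3% and 14%. Of the 266 changed genes, 210 had a promoter in the RefSeq table. A match describes the letters of the window and does not show a bound site.

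C2cd4a was at 12.08, 11.93 and 12.16 on the WT arrays and at 8.50, 8.38 and 8.39 on the KO arrays. The groups lay more than 3 log2 units apart with little spread in either, and C2cd4a fell by 3.63 log2 units (SE 0.456, 12.4-fold, adjusted p = 0.00699, limma). All 3 of its probes changed in the same direction. Chst1 was at 11.49, 11.41 and 11.70 in WT and at 8.18, 8.14 and 8.26 in KO. It fell by 3.34 (SE 0.298, 10.1-fold, adjusted p = 0.00123). Both genes remained above background in KO on all 3 arrays. Elfn2 was at 9.47, 9.90 and 9.42 in WT and at 7.64, 7.68 and 7.80 in KO, close to background, and fell by 1.89 (SE 0.163, 3.71-fold, adjusted p = 0.00116). At P15 the WT arrays had means of 9.38 for C2cd4a, 9.37 for Chst1 and 7.93 for Elfn2, below their P20 levels, and the KO means were 8.87 for C2cd4a and 8.44 for Chst1, with Elfn2 at background.

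Gm20815, a member of a multicopy gene family of the Y chromosome, was spread widely in WT at 8.90, 10.77 and 11.11, and was below background on all 3 KO arrays at 7.40 to 7.48. It was at least 6.61-fold lower in KO (adjusted p = 0.0162). The call was lost in the fit of the 6 P20 arrays (adjusted p = 0.0764) and without WT replicate 2, KO replicate 1 or KO replicate 2, where the highest adjusted p was 0.0767. Its low WT array was replicate 1.

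A further 5 genes fell by at least 2-fold in measured signal. Gstt2, a glutathione transferase of the theta class, was at 9.57, 9.61 and 9.62 in WT and at 8.43, 8.24 and 8.17 in KO, and fell by 1.32 (SE 0.201, adjusted p = 0.0158), a call lost without WT replicate 2 or KO replicate 2 (highest adjusted p 0.0689). Gstt4, of the same family, was below background on all 3 KO arrays and at least 1.34-fold lower in KO (adjusted p = 0.0177), but did not pass in the fit of the 6 P20 arrays (adjusted p = 0.0767). 1700088E04Rik, for which no role is given here, was well expressed in both groups, at 12.05, 12.09 and 12.46 in WT and at 10.97, 10.88 and 10.81 in KO. It fell by 1.31 (SE 0.240, adjusted p = 0.0360), a call that leaving out any 1 of the 6 arrays ended with a highest adjusted p of 0.111 and changes of -1.38 to -1.18. Ifi213, of the interferon-activated PYHIN family of nucleic acid sensors, was at 9.03, 8.98 and 9.13 in WT and at 7.89, 7.84 and 7.74 in KO and fell by 1.22 (SE 0.088, adjusted p = 0.000284). Of 22 measured interferon response genes it was the only one that passed (4.55%, where 0.404% of all genes fell). Its second probe went the other way.

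The remaining pair of these genes passed from above to below background. 4930519G04Rik was at 8.32, 8.58 and 8.75 in WT and at 7.35, 7.49 and 7.40 in KO, at least 2.02-fold lower (adjusted p = 0.000759). Gldnos, a long non-coding RNA named as the opposite strand of Gldn, was at 8.35, 8.66 and 8.49 in WT and at 7.40, 7.42 and 7.35 in KO, at least 1.96-fold lower (adjusted p = 0.000165). Across all changed genes, 6 were above background on the 3 WT arrays and on 0 KO arrays, and 5 showed the reverse.

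The next falls were smaller and concerned genes that stayed well above background in both groups. Tsc22d1, a leucine zipper transcription regulator induced by TGF-beta, fell by 0.87 (adjusted p = 0.0461). Cdk2ap2, which encodes a CDK2-associated protein, fell by 0.76 (adjusted p = 0.0309). Rxylt1, an enzyme that builds the sugar chain of dystroglycan, and Eif5a, the translation factor that carries hypusine, both fell by 0.70 (adjusted p = 0.0309 and 0.0373). Acsbg1, an acyl-CoA synthetase for long-chain fatty acids, fell by 0.68 (adjusted p = 0.0387). Shbg, the androgen-binding protein that Sertoli cells secrete in rodents, was at 11.16, 11.07 and 10.86 in WT and at 10.29, 10.39 and 10.40 in KO, and fell by 0.67 (adjusted p = 0.0421). No WT array of these 6 genes overlapped a KO array, and each call depended on single arrays. In the 6 fits that left out 1 array each, Eif5a and Cdk2ap2 passed in 2, Rxylt1, Acsbg1 and Shbg in 1 and Tsc22d1 in 0, with adjusted p-values of up to 0.152. Genes named after their values were seen that fell by about 0.6 were Plcd4, a phospholipase C (0.65, adjusted p = 0.00123), Casp6, an apoptotic caspase (0.60, adjusted p = 0.0441; 0.0803 in the fit of the 6 P20 arrays), and Arpc4, a subunit of the ARP2/3 actin nucleator (0.60, adjusted p = 0.00319). For Arpc4 and Rxylt1, 1 of 2 probes changed in the opposite direction.

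**Figure D2:**
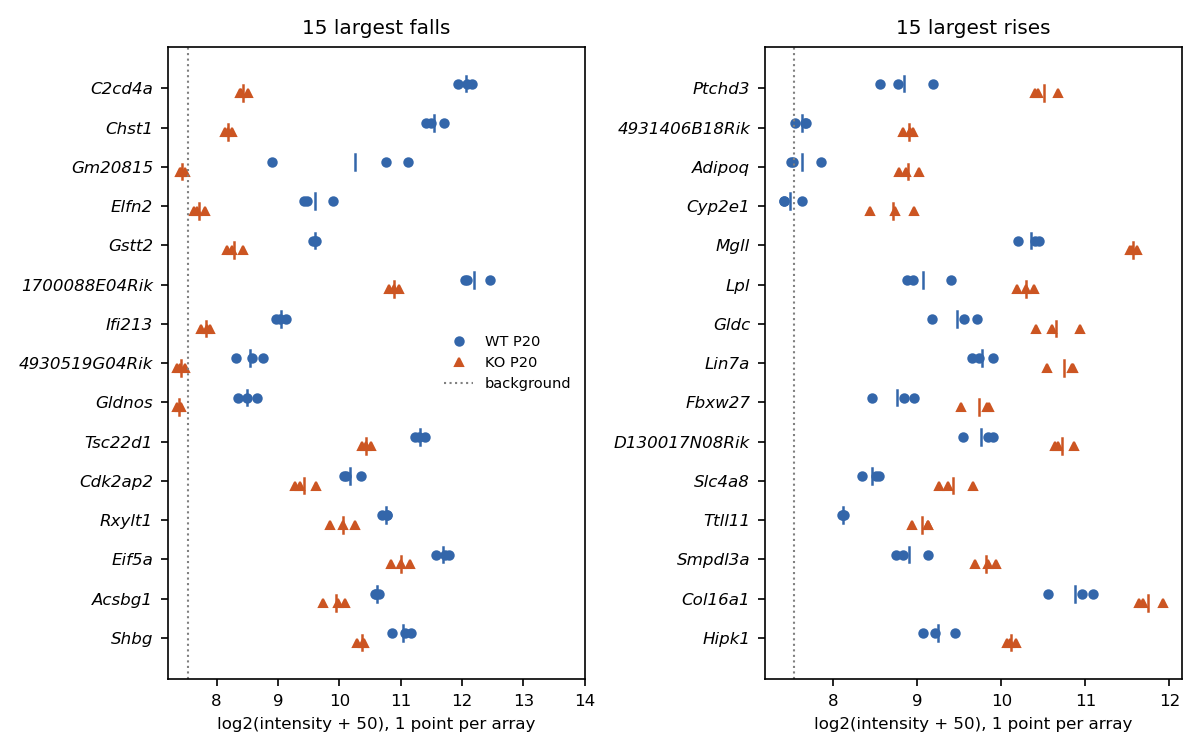
Level of the 15 largest falls and 15 largest rises among genes on each P20 array, on the log2(intensity + 50) scale. Each row is a gene, circles are WT arrays and triangles KO arrays, short bars are group means and the dotted line marks the background level of 7.53; WT and KO points do not overlap in any row, and the widest WT spread is that of Gm20815.

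The largest rise was that of Ptchd3, which encodes a patched-domain membrane protein of male germ cells. Its RefSeq promoter window, at chr11:121829968-121830267 on the plus strand of GRCm38.p6 and 300 bases long, is shown as the counterpart of the promoters of the falling genes. It has 56.3% G and C and holds no match to the 3 motifs, so no letter is in capitals.
Ptchd3: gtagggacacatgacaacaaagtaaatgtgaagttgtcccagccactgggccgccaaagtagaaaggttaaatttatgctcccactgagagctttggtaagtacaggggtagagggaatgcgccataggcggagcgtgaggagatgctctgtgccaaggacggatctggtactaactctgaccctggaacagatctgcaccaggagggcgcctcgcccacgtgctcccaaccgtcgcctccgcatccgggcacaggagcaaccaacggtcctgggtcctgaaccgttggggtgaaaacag

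Ptchd3 was at 8.56, 9.19 and 8.77 in WT and at 10.40, 10.44 and 10.67 in KO. Every KO array exceeded the highest WT array by more than 1 log2 unit, and the gene rose by 1.67 (SE 0.232, 3.17-fold, adjusted p = 0.0114). At P15 both genotypes were near background, with means of 7.81 in WT and 7.66 in KO. 4931406B18Rik, for which no role is given here, was at 7.54, 7.67 and 7.67 in WT and at 8.83, 8.91 and 8.95 in KO, and rose by 1.27 (SE 0.046, adjusted p = 3.44e-06).

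The next largest rises were those of Adipoq, Cyp2e1, Mgll and Lpl. Mgll, the monoacylglycerol lipase that also breaks down the endocannabinoid 2-arachidonoylglycerol, was at 10.20, 10.40 and 10.45 in WT and at 11.55, 11.53 and 11.61 in KO. It rose by 1.22 (SE 0.121, 2.32-fold, adjusted p = 0.00202), and all 3 of its probes agreed in direction. Lpl, the lipoprotein lipase, was at 8.87, 8.95 and 9.39 in WT and at 10.29, 10.18 and 10.39 in KO and rose by 1.22 (adjusted p = 0.0323), but 1 of its 2 probes changed in the opposite direction. Adipoq, which encodes the fat cell hormone adiponectin, was at 7.49, 7.52 and 7.85 in WT and at 8.78, 9.02 and 8.87 in KO and rose by 1.27 (SE 0.132, adjusted p = 0.00255). Cyp2e1, a cytochrome P450 of small-molecule metabolism, was at 7.41, 7.41 and 7.62 in WT and at 8.95, 8.73 and 8.44 in KO and rose by 1.23 (adjusted p = 0.0339). The Mgll and Adipoq calls held in all 6 fits that left out 1 array, and those of Lpl and Cyp2e1 in 1 of 6, with adjusted p-values of up to 0.131. In WT, Adipoq and Cyp2e1 were above background on 1 of 3 arrays. Smpdl3a, a phosphodiesterase related to acid sphingomyelinase, rose by 0.93 (adjusted p = 0.00612).

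Adipoq and Lpl were the 2 of 22 measured adipocyte genes that passed (9.09%, where 0.992% of all genes rose). At an unadjusted p under 0.05, 7 of the 22 were higher and 1 lower, against 8.12% and 7.07% of all genes. All KO arrays were above all WT arrays at 6 of them (27.3%, against 10.7% of all genes) and below at 2 (9.09%, against 9.96%). The list median change was 0.02, against 0.00 over all genes, and the list mean was 8.26 to 8.40 on the WT arrays and 8.46 to 8.57 on the KO arrays. Car3, a carbonic anhydrase abundant in fat, was at 7.41, 7.45 and 7.93 in WT and at 8.39, 8.68 and 9.17 in KO, a change of 1.15 that did not pass (adjusted p = 0.0688). Scd1 changed by 0.80 (adjusted p = 0.217), whereas the defining fat cell genes Plin1 and Pparg changed by -0.05 and 0.04, and Fabp4 was not above background on any P20 array. WT replicate 3 was the highest WT array for Adipoq, Lpl, Cyp2e1, Car3 and Scd1. The part that fat tissue beside the testis had in these rises was not tested.

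Gldc, the glycine decarboxylase of the mitochondrial glycine cleavage system, was at 9.17, 9.55 and 9.71 in WT and at 10.60, 10.41 and 10.94 in KO. It rose by 1.17 (SE 0.15, 2.25-fold, adjusted p = 0.00774). Lin7a, a scaffold protein of cell polarity complexes, rose by 0.98 (adjusted p = 0.0024), but 2 of its 4 probes changed in the opposite direction. Fbxw27, an F-box gene, rose by 0.98 (adjusted p = 0.00788), with 1 of 2 probes in the opposite direction, and the long non-coding RNA D130017N08Rik by 0.97 (adjusted p = 0.0323). Slc4a8, a sodium-driven bicarbonate exchanger, rose by 0.96 (adjusted p = 0.00344). Ttll11, a tubulin polyglutamylase, was at 8.11, 8.10 and 8.12 in WT and at 9.13, 9.12 and 8.93 in KO and rose by 0.95 (adjusted p = 0.00123). Hipk1, a nuclear protein kinase, rose by 0.87 (adjusted p = 0.0110), a call lost without WT replicate 2 (adjusted p = 0.0522), and 1 of its 2 probes went the other way. Col16a1, a fibril-associated collagen, rose by 0.88 (adjusted p = 0.0333), but did not pass in the fit of the 6 P20 arrays (adjusted p = 0.0558). It passed in 1 of the 6 fits that left out an array, and D130017N08Rik in 0 of 6, with adjusted p-values of up to 0.128.

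The gene lists followed the order of spermatogenesis, and most of their members did not pass. None of 22 spermatogonial genes changed (list median -0.03), nor did any of 30 genes of early meiotic prophase (median 0.02), by limma at the adjusted threshold. At an unadjusted p under 0.05, which 8.12% of all genes met as higher and 7.07% as lower, 4 spermatogonial and 5 prophase genes were counted. Of the spermatogonial genes, Uchl1 changed by -0.73 (adjusted p = 0.116) and the receptor gene Kit by -0.44 (adjusted p = 0.0576). The synaptonemal complex gene Sycp1 changed by 0.20, Sycp3 was not above background on any P20 array, and the meiotic cohesin gene Stag3 by 0.47 (adjusted p = 0.124). Of 23 pachytene spermatocyte genes, 3 rose, 0 fell and 19 had a positive change, where 0.992% of all genes rose. The list median was 0.11, and 0.051 to 0.155 when single arrays were left out. Pou5f2, a POU-domain transcription factor of spermatocytes, was at 10.95, 11.07 and 11.33 in WT and at 11.75, 11.93 and 11.72 in KO and rose by 0.69 (adjusted p = 0.0351). Nlrp14, an NLR protein of germ cells, rose by 0.54 (adjusted p = 0.0315) and Ovol1, which encodes a zinc finger transcription factor of meiotic germ cells, by 0.41 (adjusted p = 0.0396). In the fit of the 6 P20 arrays Nlrp14 and Ovol1 did not pass (adjusted p = 0.0887 and 0.114), and when single arrays were left out Pou5f2 passed in 1, Nlrp14 in 3 and Ovol1 in 2 of 6 fits. For Nlrp14, 1 of 3 probes went the other way. The piRNA pathway, with 21 measured genes, and the lists of 29 DNA damage genes and 27 p53 and apoptosis genes held no gene that passed, with medians of 0.02, -0.03 and 0.00, and 3, 4 and 7 of them had an unadjusted p under 0.05.

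None of 47 genes of the meiotic G2/M transition and division passed, and their median was 0.01. At an unadjusted p under 0.05, 2 were higher and 3 lower, against 8.12% and 7.07% of all genes. Plk1, the polo-like kinase of division, changed by -0.85 (adjusted p = 0.0564) and the phosphatase gene Cdc25a by -0.41 (adjusted p = 0.0586). The spindle checkpoint kinase gene Bub1b changed by 0.29 (adjusted p = 0.0658). These 3 were picked after their values were seen as the members nearest the threshold. Without WT replicate 1, Plk1 fell by 1.07 (SE 0.128, adjusted p = 0.00684) and Cdc25a by 0.53 (SE 0.056, adjusted p = 0.0033). They were the 2 of 47 members that passed in that fit, where 0.598% of all genes fell and 0.651% rose. Like the genes, this fit was picked with its values known, so its p-values do not test a fall of the list.

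Spermatid genes and flagellar genes leaned in opposite directions. Of 46 spermatid genes, 0 passed by their brightest probe, 35 had a negative change and the median was -0.11, with 23 members above background on all arrays of a group. At an unadjusted p under 0.05, 19 were lower and 1 higher, against 7.07% and 8.12% of all genes. Another probe of the member Zpbp, not its brightest, passed as higher in KO (0.53, adjusted p = 0.0379). The 3 KO arrays lay below all WT arrays at 12 of the 46 (26.1%, against 9.96% of all genes) and above them at 5 (10.9%, against 10.7%). The 2 members of highest mean, Catsper2 and Dkkl1, were among those 5. They changed by 0.47 and 0.31 without passing (adjusted p = 0.505 and 0.846). The largest negative changes among members above background on all 6 arrays were those of Odf1, a sperm tail protein (-0.59, adjusted p = 0.178), and Spaca1, an acrosomal membrane protein (-0.45, adjusted p = 0.0681). Acrv1, an acrosomal matrix protein, was below background on all KO arrays and on 1 WT array and at least 1.27-fold lower in KO without passing (adjusted p = 0.201). With every level held at or above background, a setting chosen after seeing the data, the list median was -0.09. The list mean was 8.06, 8.28 and 8.40 on the WT arrays and 8.12 to 8.14 on the KO arrays, so WT replicate 1 lay below the KO arrays. Odf1 was at 7.69, 8.33 and 8.63 in WT and at 7.62, 7.66 and 7.59 in KO, and Acrv1 at 7.47, 7.99 and 8.19 in WT and at 7.42, 7.47 and 7.42 in KO. On both genes WT replicate 1 was near the KO level and the other WT arrays were above it.

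Without WT replicate 1 the count of spermatid genes that passed went from 0 to 13 of 46 (28.3%), all of them falls, where 0.598% of all genes fell and 0.651% rose in that fit. Odf1 fell by 0.86 (SE 0.073, adjusted p = 0.000998), and the actin-like acrosomal protein Actl7a, above background on 2 KO arrays, by 0.63 (SE 0.088, adjusted p = 0.0145). The others named here were below background on all KO arrays, so their falls are lower bounds. Acrv1 was at least 1.47-fold lower (adjusted p = 0.00237), Spaca7, another acrosomal protein, at least 1.36-fold (adjusted p = 0.000225), Smcp, a protein of the sperm mitochondrial sheath, at least 1.36-fold (adjusted p = 0.0220), and Hils1, a spermatid linker histone, at least 1.22-fold (adjusted p = 0.0366). The median of the 46 was then -0.17, and it was -0.05 without WT replicate 3 instead, when 0 of them fell. The fit without WT replicate 1 was picked after its values were seen, and that array had the lowest list mean of the WT arrays. The p-values of that fit therefore do not test a fall of the list. WT at P20 has 2 arrays in it, and the spread is estimated over all 4 groups.

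Of 73 axoneme genes, 2 rose (2.74%, against 0.992% of all genes), 0 fell and 60 had a positive change, with a median of 0.15. At an unadjusted p under 0.05, 18 were higher and 1 lower, against 8.12% and 7.07% of all genes. All KO arrays were above all WT arrays at 19 of these genes (26%, against 10.7% of all genes). Dnah2, an axonemal dynein heavy chain, was at 9.38, 9.73 and 9.74 in WT and at 10.37, 10.29 and 10.33 in KO and rose by 0.71 (SE 0.092, adjusted p = 0.00806), with 1 of 3 probes in the opposite direction. Cfap43, a flagellar protein, rose by 0.53 (adjusted p = 0.0336; 0.0791 in the fit of the 6 P20 arrays), and passed in 2 of the 6 fits that left out an array. Dnah8, another dynein heavy chain, changed by 0.57 and Cfap65 by 0.51, and neither passed (adjusted p = 0.285 and 0.264). The axoneme mean was 9.24, 9.43 and 9.55 on the WT arrays and 9.54 to 9.62 on the KO arrays. The list median was 0.05 without WT replicate 1 and 0.25 without WT replicate 3.

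**Figure D3:**
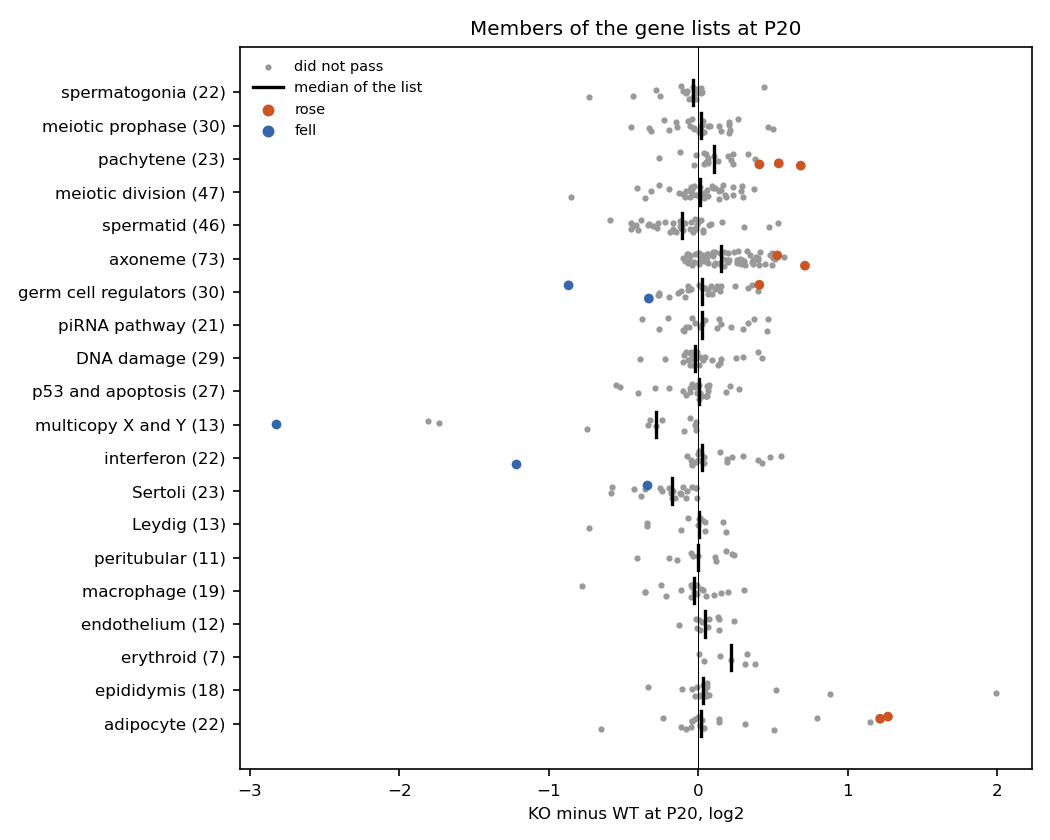
Change of every measured member of the gene lists at P20. Each point is a gene, placed by KO minus WT on the log2(intensity + 50) scale, coloured where it passed the test, with a bar at the list median; Sertoli genes and multicopy sex-linked genes lie wholly below 0, and most axoneme genes lie above it.

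A few changed genes that belong to no list are named here after their values were seen, as single genes and not as a group. Spaca9, a sperm acrosome-associated protein, was at 8.16, 8.03 and 8.30 in WT and at 9.13, 9.06 and 8.72 in KO and rose by 0.81 (adjusted p = 0.00699). Kif9, a kinesin of motile flagella, rose by 0.54 (adjusted p = 0.00185), and Spata4 by 0.62 (adjusted p = 0.00548). Adam18, a sperm surface protein, rose by 0.68 (adjusted p = 0.0101), and Prss50, a serine protease-like protein of the testis, fell by 0.51 (adjusted p = 0.0187). Neither Adam18 nor Prss50 passed in the fit of the 6 P20 arrays (adjusted p = 0.0539 and 0.0532).

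Genes of the sex chromosomes leaned downward. All 13 measured multicopy genes of the X and Y had a negative change, with a median of -0.29 (-0.17 with levels held at or above background). Of these, 1 passed, Gm20815 (7.69%, where 0.404% of all genes fell). All KO arrays were below all WT arrays at 9 of them (69.2%, against 9.96% of all genes). Ssty2, a Y-linked spermatid gene, was at 8.00, 9.68 and 10.08 in WT and at 7.51, 7.39 and 7.43 in KO, all below background. It was at least 3.29-fold lower without passing (adjusted p = 0.0699), and 1 of its 2 probes went the other way. Gm20867 was at 7.94, 9.59 and 10.31 in WT and at 7.47, 7.60 and 7.57 in KO (-1.73, adjusted p = 0.112), and Sly, the Y-linked regulator of sex chromosome silencing after meiosis, was below background on all KO arrays and 1 WT array and at least 1.11-fold lower without passing (adjusted p = 0.0845). For each of Gm20815, Ssty2, Gm20867 and Sly the lowest WT array was replicate 1. Without WT replicate 1, 6 of the 13 fell (46.2%, where 0.598% of all genes fell), with adjusted p-values from 3.72e-07 to 0.0226. This fit was picked after its values were seen and omits the WT array with the lowest list mean, so its p-values do not test the list. Gm20867, above background on 2 KO arrays, fell by 2.40. The others were below background on all KO arrays, and their levels in KO were at least 10.6-fold lower for Gm20815, 5.08-fold for Ssty2, 1.93-fold for Ssty1, 1.197-fold for Sly and 1.17-fold for Cypt3. Because these genes have near-identical copies, their probes cannot be assigned to 1 copy.

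Among 710 measured X-linked genes, 0 rose and 5 fell (0.704%), where 0.992% of all genes rose and 0.404% fell. A negative change was found at 474 of the 710, and the median was -0.03 (-0.003 with levels held at or above background). All KO arrays lay below all WT arrays at 133 of the 710 (18.7%, against 9.96% of all genes) and above at 19 (2.68%, against 10.7%). Among 18255 autosomal genes 187 rose (1.02%) and 71 fell (0.389%), with a median of 0.00. The X-linked falls were those of Dmrtc1a, a DMRT-like gene (-0.43, adjusted p = 0.0464), Gm5072 (-0.38, adjusted p = 0.0123), the zinc finger gene Zfp711 (-0.33, adjusted p = 0.0458), the non-coding AU015836 (-0.29, adjusted p = 0.0414) and Gm14594, which was below background on all KO arrays (at least 1.09-fold lower, adjusted p = 0.0257). Dmrtc1a was at 11.76, 11.94 and 11.63 in WT and at 11.22, 11.35 and 11.47 in KO and had no call in the fit of the 6 P20 arrays (adjusted p = 0.101), and Gm14594 missed it there as well (adjusted p = 0.0564). Leaving out single arrays, Gm5072 passed in 5 of 6 fits, Dmrtc1a in 2, Gm14594 in 1 and the other two in 0. The number of X-linked falls was 0 without KO replicate 1, 1 without WT replicate 2 and 2 without KO replicate 2 or 3. It was 9 without WT replicate 1 (1.27%, where 0.598% of all genes fell) and 10 without WT replicate 3. The share of all genes that fell in the other fits is not given here, so their counts cannot be set against it. Under scaling to the 75th percentile, which moved the median change of all probes by 0.05, the X median became 0.02 and 5 X-linked genes still passed as lower and 0 as higher.

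Long non-coding RNA genes made up 417 of the measured genes, of which 11 rose and 2 fell (3.12%, against 1.35% of 18397 protein-coding genes). Neat1, the scaffold RNA of nuclear paraspeckles, was at 8.47, 8.21 and 8.22 in WT and at 8.89, 8.82 and 8.84 in KO and rose by 0.55 (SE 0.085, adjusted p = 0.0162), a call lost without WT replicate 2 or KO replicate 1 (highest adjusted p 0.0769). 0610009L18Rik was at 8.50, 8.41 and 8.47 in WT and at 9.19, 9.24 and 9.10 in KO and rose by 0.72 (adjusted p = 0.00185). 4930515G01Rik rose by 0.77 (adjusted p = 0.00255), and Gm26588 by 0.64 (adjusted p = 0.0373), a call lost in the fit of the 6 P20 arrays (adjusted p = 0.0854) and in 4 of the 6 fits that left out an array. Besides Gldnos, AU015836 was the other non-coding gene that fell.

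Of 30 germ cell regulators, 1 rose (Ovol1) and 2 fell (Tsc22d1 and Zfp711), with a median of 0.02. These were 3.33% and 6.67% of the list, where 0.992% of all genes rose and 0.404% fell. In the 6 fits that left out 1 array each, Tsc22d1 and Zfp711 passed in 0 and Ovol1 in 2.

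Sertoli cells, the somatic nurse cells of the tubule, were represented by 23 genes. All 23 had a negative change, with a median of -0.18, and 1 passed (4.35%, where 0.404% of all genes fell). At an unadjusted p under 0.05, 10 were lower and 0 higher, against 7.07% and 8.12% of all genes. All KO arrays were below all WT arrays at 8 of them (34.8%, against 9.96% of all genes). Cst9, a cystatin of Sertoli cells, was at 14.43, 14.38 and 14.44 in WT and at 14.14, 13.97 and 14.09 in KO and fell by 0.34 (SE 0.060, adjusted p = 0.0299), a call that leaving out any 1 of the 6 arrays ended. Inha, the inhibin alpha subunit (-0.58, adjusted p = 0.161), and the homeobox gene Rhox5 (-0.58, adjusted p = 0.201) did not pass. The list mean was 10.47, 10.34 and 10.30 on the WT arrays and 10.12 to 10.18 on the KO arrays, so the groups did not overlap, and the median was -0.11 in the leave-one-out fit that brought it nearest to 0.

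The other cell types gave no gene that passed (limma), and 1 Leydig, 2 peritubular, 1 endothelial, 1 macrophage and 0 erythroid genes had an unadjusted p under 0.05. Of all genes, 8.12% met that threshold as higher and 7.07% as lower. Among 13 Leydig cell genes the median was 0.00, and Insl3, their peptide hormone, changed by -0.34 (adjusted p = 0.766). The 11 peritubular, 12 endothelial and 19 macrophage genes had medians of 0.00, 0.05 and -0.03. Lyz2, the lysozyme of macrophages, changed by -0.78 (adjusted p = 0.0539). The 7 erythroid genes had a median of 0.22, which ranged from -0.103 to 0.583 when single arrays were left out, and a mean of 10.79 on KO replicate 2, the array with the high Gbp2 signal, and of 9.51 to 10.14 on the other 5 arrays. Hbb-bt, a globin of red blood cells, was at 13.54, 12.98 and 12.73 in WT and at 12.37, 14.39 and 13.42 in KO.

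**Figure D4:**
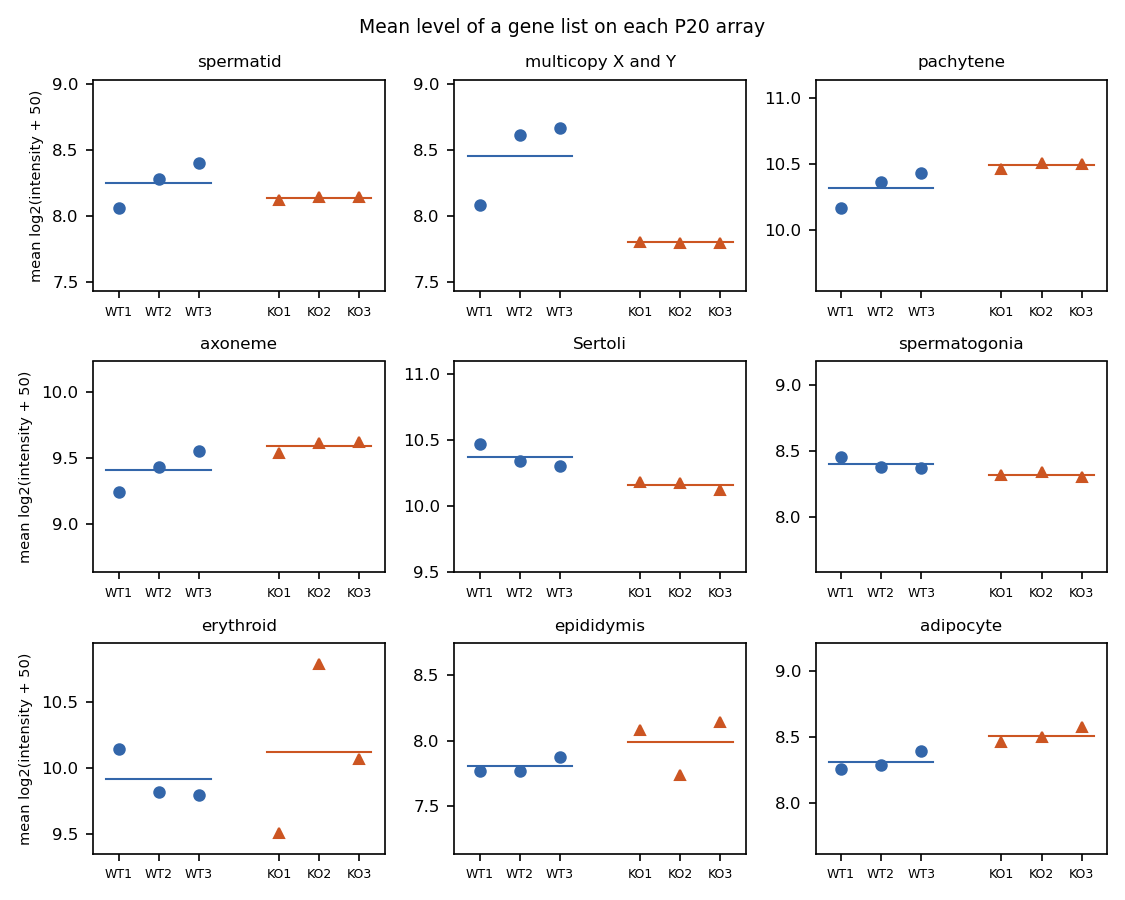
Mean level of 9 gene lists on each P20 array, on the log2(intensity + 50) scale. Circles are the 3 WT arrays, triangles the 3 KO arrays and lines the group means, and every panel spans the same range; WT replicate 1 is the lowest WT array for spermatid, multicopy sex-linked, pachytene and axoneme genes, KO replicates 1 and 3 are high for epididymal genes and KO replicate 2 is high for erythroid genes.

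Among 111 unnamed probes that passed, 77 were higher and 34 lower in KO. The 4 with the largest changes were all falls. Probe ILMN_2707818 was at 11.43, 11.40 and 11.70 in WT and below background in KO at 7.43, 7.45 and 7.43. It was at least 15.7-fold lower (adjusted p = 0.00117). ILMN_2723120 fell by 2.83 (adjusted p = 0.00255), from a WT mean of 10.40 to a KO mean of 7.57. ILMN_1257177 was at 10.17, 10.26 and 10.24 in WT and at 7.55, 7.53 and 7.56 in KO and fell by 2.68 (adjusted p = 4.39e-06). ILMN_1252709 was at 8.71, 10.34 and 10.96 in WT and at 7.35 to 7.39 in KO, at least 5.54-fold lower (adjusted p = 0.0200; 0.0839 in the fit of the 6 P20 arrays), and passed in 2 of the 6 fits that left out an array. The low WT array of ILMN_1252709 was replicate 1, as for Gm20815. The gene of each of these probes was not identified here, and whether 1 of them reports Topaz1 was not tested.

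The genes that changed at P20 were next read at P15, on arrays that the P20 comparison did not use for its means. Of the 189 rises, 121 (64.0%) had a positive change at P15, where 53.5% of all genes did, and their median change was 0.03. Of the 77 falls, 61 (79.2%) were negative at P15, where 46.5% of all genes were, and their median was -0.11. At P15 2 probes passed over the whole table, and 1 of them, the unnamed probe ILMN_1257177, was among those that passed at P20. At P15 it had means of 9.43 in WT and 7.58 in KO, a change of -1.85 (adjusted p = 0.000337, limma).

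A test of the difference between the 2 genotype effects gave 25 probes (0.0552%), all of which had passed at P20. Among them were Ifi213, 4930519G04Rik and Gldnos of the falls, and 4931406B18Rik and Adipoq of the rises. Gldnos and 4930519G04Rik were at background at P15 in both genotypes, with WT means of 7.44 and 7.41. The WT level of 4931406B18Rik was 7.46 at P15 and 7.63 at P20, and its KO level was 7.49 and 8.90. C2cd4a, Chst1 and Elfn2 changed by -0.51, -0.93 and -0.43 at P15, but a changed effect between P15 and P20 was not called for these genes (adjusted p = 0.171, 0.0944 and 0.0736). Mgll and Lin7a changed by 0.02 and 0.03 at P15, and their differences missed the threshold too (adjusted p = 0.0522 and 0.0653). The count of 25 depended on single arrays, at 3 without WT replicate 2, 7 without KO replicate 3, 15 without KO replicate 1, 34 without WT replicate 3, 46 without KO replicate 2 and 69 without WT replicate 1.

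**Figure D5:**
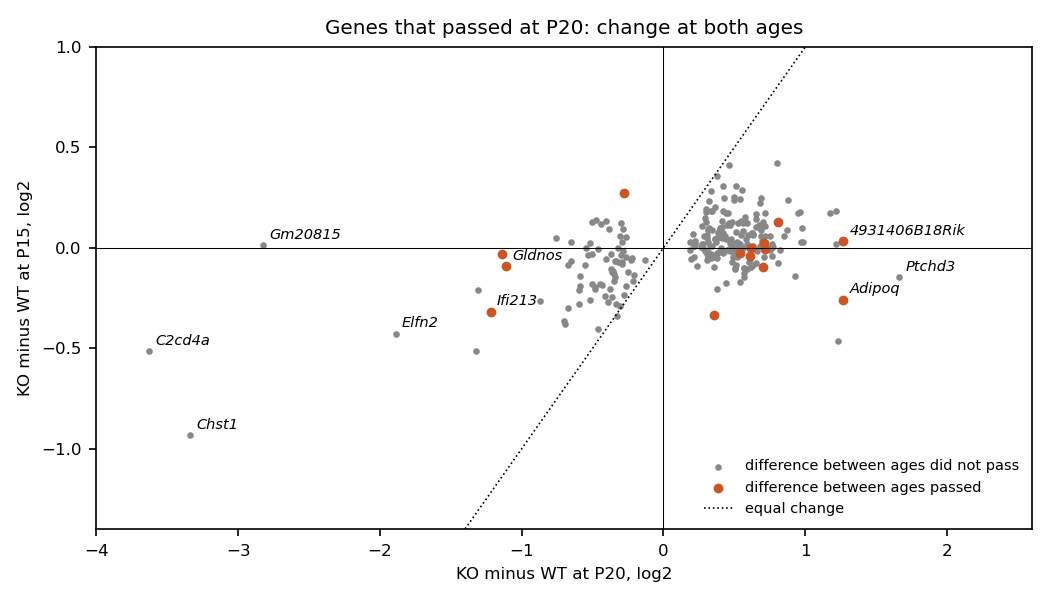
KO minus WT at P20 (horizontal axis) against KO minus WT at P15 (vertical axis), both in log2 units, for the 266 genes that passed at P20. Coloured points are genes whose difference between the ages passed. Points on the dotted line would have changed equally at both ages; the rises scatter around 0 at P15, and C2cd4a, Chst1 and Elfn2 have negative changes at both ages that are closer to 0 at P15.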

How the data were processed

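The 12 arrays were Illumina mouse bead arrays of testis RNA. Per the labels' protocols, column-purified, DNase I-treated total RNA was labelled with biotin. The authors' deposited processed file holds linear intensity values after quantile normalization, and the other deposited file holds non-normalized intensity values. The submitters' processing notes name BeadStudio without a version. Quantile normalization of the non-normalized values gave the deposited ones within 0.00833 on the log2 scale.

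An offset of 50 was added to the deposited intensities and log2 was taken. The values are not background-subtracted, which compresses fold changes. All 45281 probes of the 12 arrays went into 1 limma fit (version 3.58.1, R 4.3.3; lmFit with a mean for each of 4 groups, then eBayes; degrees of freedom 8 residual, 2.14 prior), with Benjamini-Hochberg adjustment over all probes, two-sided, at 0.05. Errors of changes are standard errors (SE) of this fit. Precision is limited by having 3 arrays per group.

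The background level of an array was set at the mode of its log2 values plus 1.645 standard deviations of the values below it. Where 0 arrays of the lower group were above it, the fold is a lower bound ("at least"). GEO's platform annotation gave 34885 probes 1 gene symbol, 18 several and 10378 none, and chromosomes and gene types came from RefSeq (GRCm38.p6). A gene was represented by its brightest probe over the 12 arrays. Named were the 15 largest rises and falls among genes that passed with groups that did not overlap, the 4 unnamed probes of largest change, up to 6 members of each list, chromosome or gene class that passed, or else the 2 of highest mean; any other gene named was picked with its values known. The comparison and the 21 gene lists were chosen with earlier results of these data known, so lists carry no test. Of 3 listed non-coding RNAs tied to Topaz1, 0 were measured.

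Alternatives were own quantile normalization, cyclic loess, 75th percentile scaling, normexp, offsets of 16 and 1, an intensity trend, a filter on dim probes, weighting of arrays, a fit without P15, blocking on replicate number, averaging the probes of a gene, requiring 1.5-fold, omitting arrays and, added later for list medians, holding levels at or above background. Slide positions, control probes and detection values are not given in these files, so neqc, a detection filter and a slide term could not be run.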

Additional observations from a re-analysis of the deposited data

Results flagged for a closer look

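The genotype effect at P20 differed from that at P15 for 5 of the named genes by a test of the difference itself (limma, Benjamini-Hochberg adjusted over all probes). The difference, P20 effect minus P15 effect on the log2 scale, was -0.902 for Ifi213 (adjusted p = 0.0474), -1.106 for 4930519G04Rik (adjusted p = 0.0267) and -1.023 for Gldnos (adjusted p = 0.0127). It was 1.236 for 4931406B18Rik (adjusted p = 0.000142) and 1.526 for Adipoq (adjusted p = 0.0304). For 4930519G04Rik and Gldnos these are differences of measured signals: both were below background on all KO arrays at P20 and had WT means below it at P15, so no exact size can be given for them. Their P20 falls were at least 2.02-fold and 1.96-fold. The differences of 4931406B18Rik and Adipoq also rest on signals near background. At P15 4931406B18Rik had means below it, at 7.46 in WT and 7.49 in KO. Adipoq was above background on 1 of 3 WT arrays at P20. At P15 Ifi213 was 0.32 and Adipoq 0.26 lower in KO, and neither difference passed (adjusted p = 0.467 and 0.703, limma). The other 3 genes were within 0.10 of WT there. The number of probes with such a difference ranged from 3 to 69 when single P20 arrays were left out. With 3 arrays per group, single outlying arrays were not tested for.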

How the results depend on the processing

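The replicate numbers did not pair the arrays: over 16905 probes, deviations of same-numbered WT and KO arrays correlated at 0.234, -0.175 and -0.050, and 2 of 6 arrays correlated best with their own number. With the replicate number as a block, 108 probes passed at P20 (70 higher, 38 lower, 87 shared with the 472), and 2 differed between the ages. At P20, 907 probes passed with array weights, 154 with a fold of at least 1.5 added and 128 without KO replicates 1 and 3 (112 higher, 16 lower, 71 shared); leaving out single arrays gave 158 to 542, and without WT replicate 1 the split was 213 higher and 191 lower. The other settings gave counts within 1.5 times, and own quantile normalization gave the same 472. For the difference between ages, 6 probes passed with cyclic loess, 15 with 75th percentile scaling and 67 with an intensity trend, and 3 to 69 when single arrays were left out.

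No result changed sign while passing. Medians of lists moved as follows. Scaling to the 75th percentile gave 0.013 for spermatogonia, 0.073 for meiotic division, 0.013 for DNA damage, 0.028 for p53, 0.048 for Leydig, 0.018 for the X, 0.054 for autosomes, 0.052 for protein-coding genes and 0.062 for long non-coding RNAs. Normexp gave -0.534 for multicopy sex-linked genes, -0.068 for the X and 0.008 for autosomes. The filter on dim probes, which leaves fewer members, gave 0.225 for pachytene, -0.060 for germ cell regulators, -0.541 for multicopy sex-linked genes, 0.210 for interferon, -0.095 for Leydig, 0.113 for peritubular, 0.085 for adipocyte, -0.090 for the X, -0.863 for the Y and 0.025 for long non-coding RNAs. The p53 median was 0.008 with array weights and -0.008 with the mean over a gene's probes. Without KO replicates 1 and 3 the medians were 0.042 for DNA damage, -0.020 for p53 and 0.902 for erythroid genes. Leaving out single arrays gave -0.011 to 0.026 for p53, -0.209 to -0.105 for Sertoli, -0.070 to 0.036 for macrophage, -0.031 to -0.003 for DNA damage, -0.103 to 0.583 for erythroid, 0.016 to 0.073 for endothelial, 0.051 to 0.155 for pachytene, -0.303 to -0.192 for multicopy sex-linked, -0.004 to 0.053 for germ cell regulator and -0.002 to 0.026 for adipocyte genes. Holding levels at or above background, a setting chosen after seeing the data, gave -0.003 for the X and 0 for autosomes. The causes were not tested. Of the 30 genes of largest change, Chst1, Elfn2, Ifi213, 4930519G04Rik, Gldnos, 4931406B18Rik, Adipoq and Ttll11 passed under all 18 alternatives, and 2 missed the threshold in the fit of the 6 P20 arrays, Gm20815 and Col16a1. Signals near background bound the falls of Gm20815, 4930519G04Rik and Gldnos.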
